A study of Mus musculus with 12 samples.

Results

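In C2C12, a line of mouse myoblasts with the capacity to fuse into myotubes, 10 genes of the unfolded protein response and the amino acid response were followed: Hspa5, Sdf2l1, Dnajb9, Herpud1, Xbp1, Atf4, Ddit3, Trib3, Chac1 and Asns. They were taken by name, as known components or targets of these responses, through every array probe whose accession belongs to one of them. This gave 12 probes for 10 genes, out of 24543 genes that passed a filter on dim probes. All 10 genes passed it, and every one of the 12 probes was well above background on all 12 arrays. Atf4 and Dnajb9 had 2 probes each and the other 8 genes had 1.

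Proteins that fail to fold in the endoplasmic reticulum (ER) draw the chaperone BiP, made from Hspa5, away from the sensors Ire1, Perk and Atf6. Ire1 splices the Xbp1 mRNA, Atf6 is released as a transcription factor, and Perk phosphorylates the translation factor eIF2alpha, which lowers protein synthesis but lets the Atf4 mRNA be translated. The kinase Gcn2 phosphorylates the same site when amino acids run short, so Atf4 and its targets, among them Ddit3 (CHOP), Trib3, Chac1 and Asns, answer to both conditions. The arrays measure total mRNA of each gene and show neither the splicing of Xbp1 nor the translation of Atf4.

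The cells were collected 72 h after transfection and their RNA was hybridised to Agilent arrays of 1 colour, with 3 array files in each of 4 groups. By the labels these are a negative control, the plasmid pcDNA3.1, the plasmid pcDNA3.1-MEG3, and siRNA. pcDNA3.1 is an expression plasmid, pcDNA3.1-MEG3 is labelled as overexpression of the long non-coding RNA MEG3 and siRNA as its knockdown. The sample titles of the pcDNA3.1 group read pat1, which the titles leave unexplained. The labels give neither the sequence of the siRNA nor what the negative control contained, and they leave unsaid whether each replicate was its own culture. The p-values therefore describe the spread among these samples alone, and that spread may be technical.

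On 11 arrays the signal had a 75th percentile of 1168 to 1601, and on replicate 2 of the negative control of 2266. That array also differed most from the other replicates of its group (SD of log2 differences 0.61, against 0.21 between replicates 1 and 3), and siRNA replicate 2 came next (0.51). Between 2 spots of a probe the SD was 0.537 and 0.495 on siRNA replicates 1 and 3. It was 0.225 on siRNA replicate 2 and 0.185 to 0.355 in the other groups. The fewest probes were well above background on siRNA replicates 1 and 3 (24556 and 24454, against 27055 on siRNA replicate 2). In the 3 groups other than the negative control, replicates 1 and 3 came from the same slide position in different scans. They differed by an SD of 0.0511 to 0.0603 and were taken as scans of 1 hybridisation, so they were averaged. Arrays counted below are therefore not all separate hybridisations. Replicates 1 and 3 of the negative control had different slide positions in 1 scan and were averaged only to treat all groups alike, which gives replicate 2 as much weight as both together. This left n = 2 samples per group. The negative control, both plasmid groups and the siRNA group lay on separate slides, so slide and group cannot be told apart except between the plasmid groups, which share one. Meg3 went against the plasmid labels: probe A_51_P455997, the brightest of Meg3, stood well above background with pcDNA3.1 (3 of 3 arrays) and not on the arrays labelled pcDNA3.1-MEG3 (0 of 3). It did so on 1 of 3 negative control and 0 of 3 siRNA arrays. Every value of a single plasmid group, against the other or against the negative control, therefore holds as labelled only. The mean of both plasmid groups does not depend on which label is which. On all negative control arrays 9 of 10 myoblast and myotube markers were well above background, as were 7 of 7 fibroblast, 4 of 5 immune, 3 of 5 endothelial, 3 of 4 adipocyte and 0 of 4 epithelial markers, so detection alone does not single out myoblasts.

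The promoters below are shown because they carry the elements through which these responses are known to act, or because the gene passed the test in a comparison. They are the 250 bases before the annotated start, 5′ to 3′ on the strand of the gene, from RefSeq on GRCm38.p6, a later build than the one the array files name. All 10 genes matched one entry each. Capitals mark exact matches to the ER stress elements ERSE (CCAAT and CCACG, 9 bases apart) and ERSE-II (ATTGG and CCACG, 1 base apart) and to TGATGNAA, the core of the element bound by Atf4 and its partners, searched on both strands. Spacer bases and the free base N stay in lower case.
Hspa5, chr2:34771840-34772089, plus strand: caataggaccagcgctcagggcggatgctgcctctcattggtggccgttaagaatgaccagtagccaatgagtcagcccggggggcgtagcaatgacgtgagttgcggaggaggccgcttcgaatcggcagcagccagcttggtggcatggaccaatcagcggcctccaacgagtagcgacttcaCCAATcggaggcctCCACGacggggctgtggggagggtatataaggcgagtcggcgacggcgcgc
Herpud1, chr8:94386179-94386428, plus strand: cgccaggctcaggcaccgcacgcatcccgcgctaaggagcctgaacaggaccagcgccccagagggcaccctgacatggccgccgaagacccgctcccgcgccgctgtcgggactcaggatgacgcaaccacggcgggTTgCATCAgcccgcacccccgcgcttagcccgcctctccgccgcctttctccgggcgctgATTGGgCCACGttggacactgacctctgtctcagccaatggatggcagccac
Sdf2l1, chr16:17132384-17132633, minus strand: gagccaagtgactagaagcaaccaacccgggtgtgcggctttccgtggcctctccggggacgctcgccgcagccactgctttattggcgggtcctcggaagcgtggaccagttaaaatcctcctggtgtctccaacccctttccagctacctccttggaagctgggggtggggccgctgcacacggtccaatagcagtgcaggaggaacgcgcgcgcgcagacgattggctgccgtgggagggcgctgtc
Ddit3, chr10:127290543-127290792, plus strand: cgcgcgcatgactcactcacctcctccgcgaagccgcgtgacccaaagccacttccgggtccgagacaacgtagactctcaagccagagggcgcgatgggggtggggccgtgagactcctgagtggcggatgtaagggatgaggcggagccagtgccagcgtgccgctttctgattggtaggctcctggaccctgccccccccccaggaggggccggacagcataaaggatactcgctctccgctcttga
Chac1, chr2:119350992-119351241, plus strand: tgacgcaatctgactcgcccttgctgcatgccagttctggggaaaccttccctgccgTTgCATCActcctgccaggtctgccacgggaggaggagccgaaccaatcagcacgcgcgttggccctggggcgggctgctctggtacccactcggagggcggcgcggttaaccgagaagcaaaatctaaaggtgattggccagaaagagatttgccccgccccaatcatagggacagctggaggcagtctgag
Asns, chr6:7693210-7693459, minus strand: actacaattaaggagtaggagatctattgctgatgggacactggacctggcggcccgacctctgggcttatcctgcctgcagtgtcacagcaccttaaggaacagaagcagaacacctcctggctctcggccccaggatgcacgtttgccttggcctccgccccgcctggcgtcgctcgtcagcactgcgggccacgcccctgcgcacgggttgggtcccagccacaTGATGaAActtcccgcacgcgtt

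ERSE was found in the Hspa5 promoter alone of the 10, 65 to 47 bases before the start, and in 0.113% of all 32817 promoters. ERSE-II was found in that of Herpud1 alone, 52 to 42 bases before the start, and in 0.0305% of all promoters. TGATGNAA was found in 3 of the 10, those of Herpud1, Chac1 and Asns, and in 3.45% of all promoters. The short element CCACG, which is also part of ERSE and ERSE-II and is not capitalised on its own, was found in 7 of the 10 promoters and in 28.3% of all. TGACGTGG, the element bound by Xbp1, and TGACGTCA, the cAMP response element, were found in none of the 10, against 0.564% and 1.55% of all promoters. In the Ddit3 and Sdf2l1 windows no capitalised match was found. A match describes letters in this window and shows no binding.

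Levels below are the processed signal of each array in arbitrary units. Differences are on the log2 scale after subtracting each array's 75th percentile, ± SE, and were tested with limma's moderated test in 1 fit of all 8 samples, with Benjamini-Hochberg adjustment over all 24543 genes and a threshold of 0.05. The comparisons share samples of all 4 groups with one another, so their values are set side by side without a test between them.

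Calls among the 10 genes are given beside the share of all genes called in the same comparison. With 2 samples per group, a gene that was not called may still differ. Against the negative control, Sdf2l1 and Chac1 rose and Ddit3 fell in the siRNA group, 3 of 10 genes, where 12.4% of all genes were called (7.77% higher and 4.67% lower). Against the mean of both plasmid groups, Ddit3 alone was called in the siRNA group, 1 of 10, where 18.7% of all genes were called (10.6% higher and 8.12% lower), and it was lower. Between pcDNA3.1 and the negative control Sdf2l1 alone was called, 1 of 10, where 18.0% of all genes were called (11.3% higher and 6.64% lower), and it was higher. Between the plasmid groups as labelled, pcDNA3.1-MEG3 against pcDNA3.1, none of the 10 was called, where 0.00815% of all genes (2 genes) were called. An unadjusted limma p under 0.05 was found there for 2 of the 10 members, beside 10.2% of all genes. The median difference of the 10 genes was 0.14, -0.10, 0.21 and -0.02 in these comparisons in turn, beside 0.06, -0.11, 0.22 and -0.16 over all genes. The arrays of the groups compared did not overlap for 5, 5, 5 and 7 of the 10 genes, where 44.6%, 50.1%, 60.0% and 64.0% of all genes with a value on every array did not overlap. With 10 genes these shares move in steps of 1 gene, and no test of a share was made.

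Because of the Meg3 signal, the arrays labelled pcDNA3.1-MEG3 were also set against the negative control in the same fit, a comparison added after the results were seen. It called 2 of 10 genes, where 14.1% of all genes were called. Ddit3 was 3.32-fold higher (1.73 ± 0.18, limma adjusted p = 0.00465), where pcDNA3.1 as labelled gave -0.21. Sdf2l1 was 2.57-fold higher (1.36 ± 0.19, adjusted p = 0.0109), close to the 1.32 of pcDNA3.1. Chac1 differed by 0.84 ± 0.21 and did not pass (adjusted p = 0.0502), and Asns by 0.44 ± 0.25 (adjusted p = 0.272). The rise of Sdf2l1 over the negative control was thus called in each plasmid group, and which plasmid carried the Ddit3 difference rests on the labels.

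**Figure D1:**
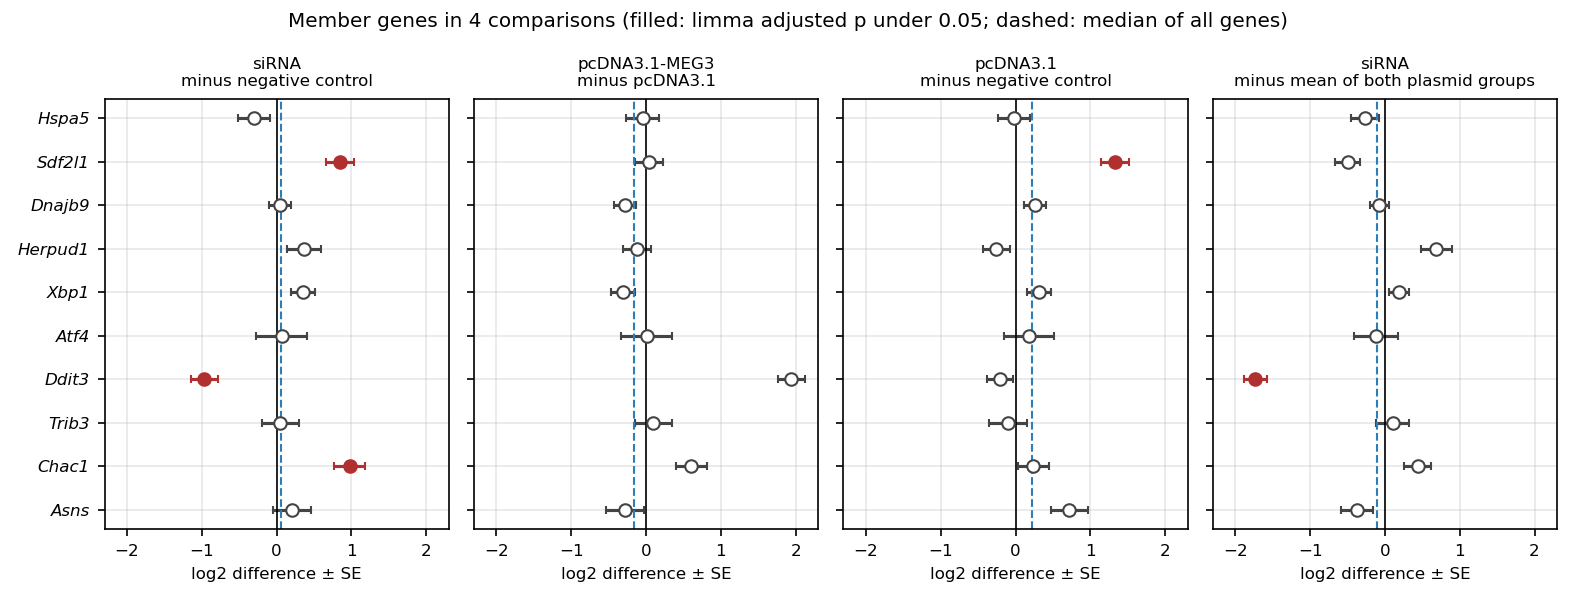
Log2 difference ± SE of the 10 genes (rows) in 4 comparisons (panels), from the fit of 8 samples; filled red points have a limma adjusted p under 0.05 and the dashed line is the median of all genes. Sdf2l1, Ddit3 and Chac1 are filled in the first panel, none in the second, Sdf2l1 in the third and Ddit3 in the fourth, while the Ddit3 point of the second panel lies at 1.94 and is not filled.

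Among all genes, 62.5%, 63% and 56.6% of those called were higher in siRNA against the negative control, in pcDNA3.1 against the negative control and in siRNA against the plasmid groups. With each array scaled to its median in place of its 75th percentile, these shares were 41.1%, 19.8% and 78.5%, and the medians of all genes moved from 0.06, 0.22 and -0.11 to -0.13, -0.23 and 0.12. None of the called differences of the 10 genes changed sign under that scaling. On the siRNA arrays 8 of 10 myoblast and myotube markers, among them Myog and Myh3, rose against the negative control and Myf5 fell, and their summed level relative to the 75th percentile was 26.4 to 27.0, against 2.00 to 2.22 on the negative control arrays. Their part in the siRNA differences of the 10 genes was not tested.

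Hspa5 encodes BiP, the Hsp70 chaperone of the ER and the usual readout of the unfolded protein response. Its signal was 102458, 119959.5 and 95569 on the negative control arrays, 89788, 93277 and 80274 with pcDNA3.1, 96232, 101316 and 87826 on the arrays labelled pcDNA3.1-MEG3, and 68410, 62662 and 63333 with siRNA. The siRNA arrays had the lowest signals, but after scaling they overlapped with replicate 2 of the negative control, while they stayed below all plasmid arrays. The differences of Hspa5 were -0.30 ± 0.22 for siRNA against the negative control (limma adjusted p = 0.419) and -0.26 ± 0.19 against the plasmid groups (adjusted p = 0.334). Between the plasmid groups and between pcDNA3.1 and the negative control they were -0.05 and -0.02, each ± 0.22. No Hspa5 difference passed the test.

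Sdf2l1 encodes an ER protein that works with BiP and its J-domain co-chaperones. Its signal was 411, 519 and 391 on the negative control arrays, 966, 957 and 909 with pcDNA3.1, 1084, 1129 and 1022 on the arrays labelled pcDNA3.1-MEG3, and 576, 624 and 566 with siRNA. The negative control arrays were lowest, the siRNA arrays between and both plasmid groups highest, with no overlap between these 3 ranges. After scaling the plasmid groups overlapped with each other. Sdf2l1 rose 2.50-fold in pcDNA3.1 against the negative control (1.32 ± 0.19, limma adjusted p = 0.0106) and 1.80-fold in siRNA (0.85 ± 0.19, adjusted p = 0.0408). Between the plasmid groups it differed by 0.04 ± 0.19 (adjusted p = 0.932), and the siRNA group lay 0.50 ± 0.16 below them, which did not pass (adjusted p = 0.0844). The call for pcDNA3.1 against the negative control held in 18 of 22 alternative settings and the call for siRNA in 7 of 22. With pcDNA3.1 replicate 2 or its replicates 1 and 3 left out, the difference for pcDNA3.1 was 1.35 or 1.29 and did not pass.

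Dnajb9 encodes ERdj4, a J-domain co-chaperone of BiP. The signal of its brightest probe was 5106, 10124 and 4830.0 on the negative control arrays, 7059, 7232 and 6722 with pcDNA3.1, 6462, 6683 and 6099 on the arrays labelled pcDNA3.1-MEG3, and 5691, 5133 and 5402 with siRNA. Replicate 2 of the negative control was the highest of all 12 arrays in signal. After scaling, the largest difference of this probe was -0.29 ± 0.15 in pcDNA3.1-MEG3 against pcDNA3.1, as labelled, whose arrays did not overlap (limma adjusted p = 0.560). The second probe, A_66_P133450, read 339.7, 1263 and 341 on the negative control arrays, 517, 628 and 499 with pcDNA3.1, 707, 629.5 and 676 on the arrays labelled pcDNA3.1-MEG3, and 611, 597 and 582 with siRNA. On it too replicate 2 of the negative control was highest. It gave 0.06 ± 0.33 in that comparison, and no difference of either probe passed the test. Under median scaling 3 of the 4 differences of the brightest probe changed sign, that of pcDNA3.1 against the negative control from 0.26 to -0.18.

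Herpud1 encodes an ER membrane protein of ER-associated degradation, the pathway that removes misfolded proteins. Its signal was 11458, 15077 and 10530.3 on the negative control arrays, 9001, 9061 and 8620.5 with pcDNA3.1, 9341, 9425 and 8683 on the arrays labelled pcDNA3.1-MEG3, and 12203 and 11199 on replicates 1 and 3 with siRNA. The spot of siRNA replicate 2 (13174) was marked as an outlier and left out, so that group had n = 1 sample for Herpud1 and its spread was taken from the other groups. The siRNA arrays were highest after scaling and the plasmid arrays lowest, without overlap. Herpud1 lay 0.69 ± 0.21 higher in siRNA than in the plasmid groups, which did not pass (limma adjusted p = 0.0826); with the outlier spot kept it was 0.64 and passed (adjusted p = 0.0330). It passed in 10 of 21 alternative settings. Against the negative control it differed by 0.37 ± 0.23 (adjusted p = 0.360).

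**Figure D2:**
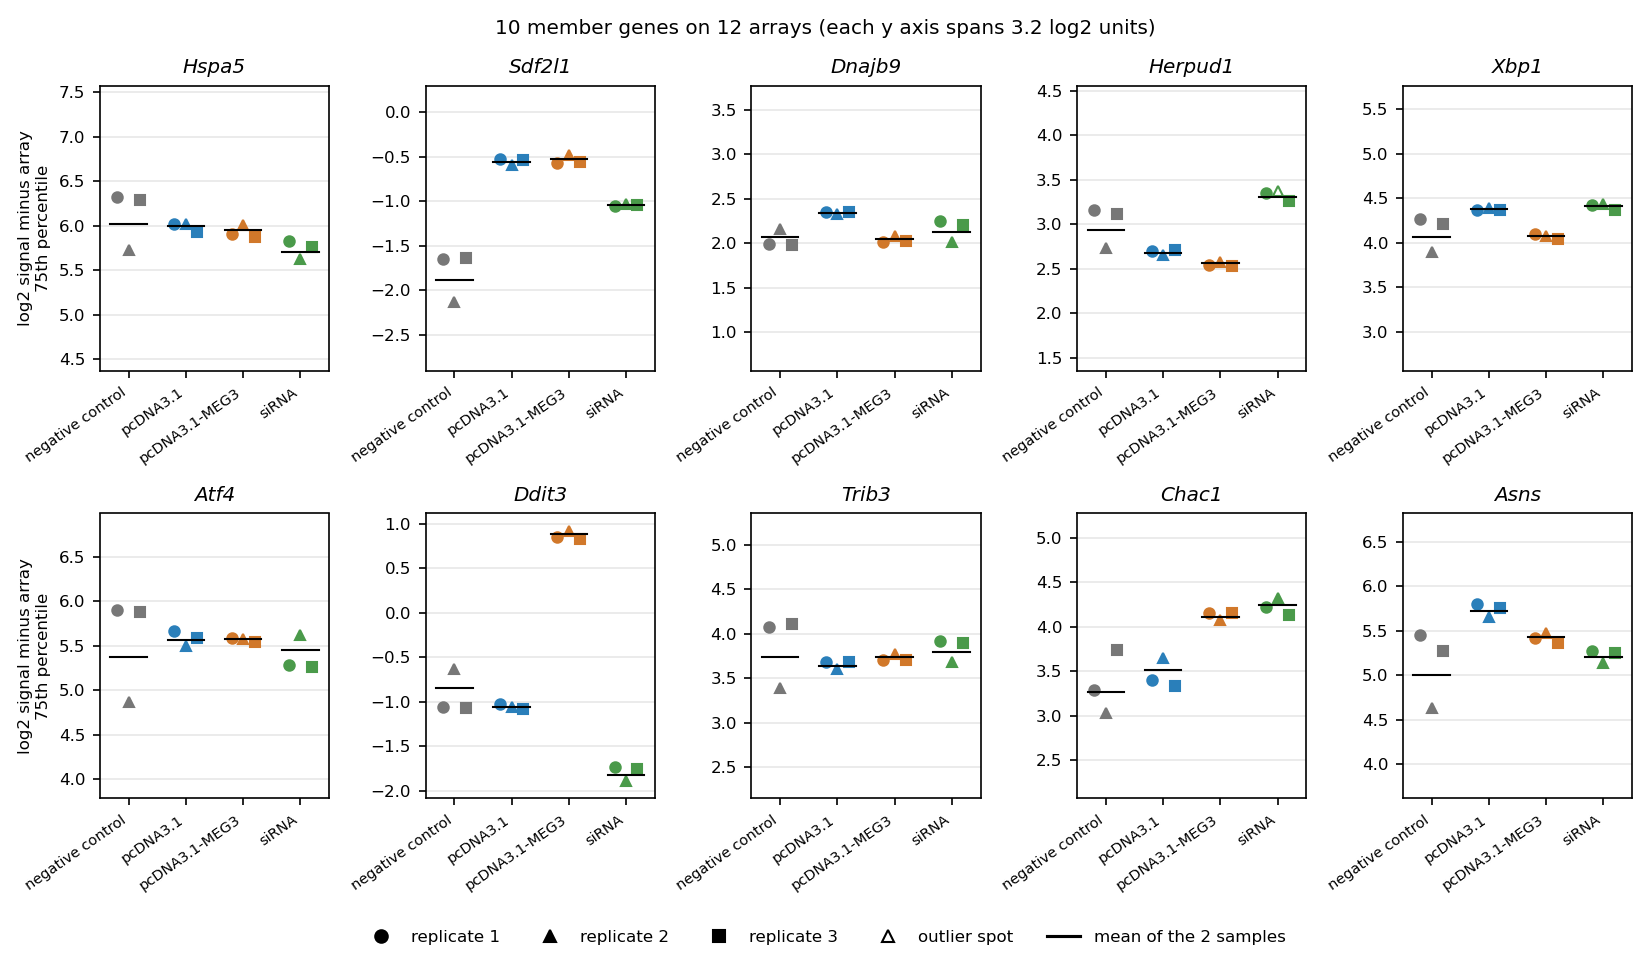
Log2 signal minus the array's 75th percentile (y axis, each panel spanning the same number of log2 units) of the brightest probe of each of the 10 genes on the 12 arrays, by group; symbols are replicates, bars the mean of the group's samples and the open symbol the outlier spot of Herpud1. Replicate 2 of the negative control stands apart from replicates 1 and 3 in most panels, Ddit3 is highest on the 3 arrays labelled pcDNA3.1-MEG3, and Sdf2l1 is lowest on the negative control arrays.

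Xbp1 encodes the transcription factor whose mRNA Ire1 splices. Its signal was 24598, 33579 and 22629.6 on the negative control arrays, 28575, 30215 and 27120.1 with pcDNA3.1, 27419.8, 26442.5 and 24781 on the arrays labelled pcDNA3.1-MEG3, and 25644, 27386.5 and 24179.6 with siRNA. After scaling, the arrays of pcDNA3.1 and of siRNA lay above those of the negative control and of pcDNA3.1-MEG3. Its differences were small, 0.35 ± 0.16 for siRNA and 0.31 ± 0.16 for pcDNA3.1 against the negative control and -0.31 ± 0.16 between the plasmid groups, and none passed (limma adjusted p = 0.212, 0.207 and 0.563). Under median scaling that of pcDNA3.1 was -0.13.

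Atf4 encodes the transcription factor on which the eIF2alpha kinases converge, and its 2 probes disagreed. The brightest probe, A_55_P1979728, gave 76851, 66181 and 71688 on the negative control arrays, 70476.5, 64935 and 63395 with pcDNA3.1, 77189.5, 75052 and 69942 on the arrays labelled pcDNA3.1-MEG3, and 46871, 62629 and 44701 with siRNA. Its differences lay between -0.12 and 0.18 with an SE of 0.29 to 0.34, and none passed the test (limma adjusted p = 0.722 to 0.990). The second probe, A_51_P464238, gave 843, 3609 and 686 on the negative control arrays, 807, 739 and 755 with pcDNA3.1, 4286, 4801 and 3986 on the arrays labelled pcDNA3.1-MEG3, and 844, 819 and 797 with siRNA. It was thus bright on all 3 arrays labelled pcDNA3.1-MEG3 and on replicate 2 of the negative control, and dim on the other 8 arrays. On this probe the plasmid groups differed by 2.39 ± 0.43, which did not pass (unadjusted p = 0.00149, limma adjusted p = 0.150), and siRNA differed from their mean by -0.90 ± 0.37 (adjusted p = 0.138). These values come from a fit of single probes and were added after the values were seen.

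Ddit3 encodes CHOP, a transcription factor induced by Atf4 that is known for promoting cell death under lasting stress. Its signal was 618, 1461 and 583 on the negative control arrays, 684, 691 and 625 with pcDNA3.1, 2902, 2991 and 2679 on the arrays labelled pcDNA3.1-MEG3, and 362, 343 and 346 with siRNA. The 3 siRNA arrays were lowest of all 12, the 3 arrays labelled pcDNA3.1-MEG3 highest, and pcDNA3.1 overlapped with the negative control. Ddit3 was 3.32-fold lower in siRNA than in the mean of both plasmid groups (-1.73 ± 0.16, limma adjusted p = 0.00179). This call held in 20 of 22 alternative settings. That mean joins unlike groups: the scaled log2 level was -1.05 with pcDNA3.1, 0.89 on the arrays labelled pcDNA3.1-MEG3 and -1.82 with siRNA. Ddit3 in siRNA was 1.96-fold lower than in the negative control (-0.97 ± 0.18, adjusted p = 0.0257), which held in 12 of 22.

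In pcDNA3.1-MEG3 against pcDNA3.1, as labelled, Ddit3 showed the largest difference in the 4 comparisons among the brightest probes of the 10 genes, 1.94 ± 0.18, or 3.84-fold, and did not pass after adjustment (unadjusted p = 4.14e-05, limma adjusted p = 0.0887). Taken within scans of the slide that holds both plasmid groups, the difference was 1.93 in the first (2 arrays a group) and 1.91 in the second (1 array a group). The second scan holds replicate 3, taken as another scan of the hybridisation of replicate 1, so its value is no separate measurement. The difference stayed between 1.67 and 2.00 over 23 alternative settings and passed in 10 of them. With either sample of the negative control left out the adjusted p was 0.0047, and with any 1 plasmid sample left out it was 0.466 to 0.823. pcDNA3.1 and the negative control differed by -0.21 ± 0.18 (adjusted p = 0.434).

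**Figure D3:**
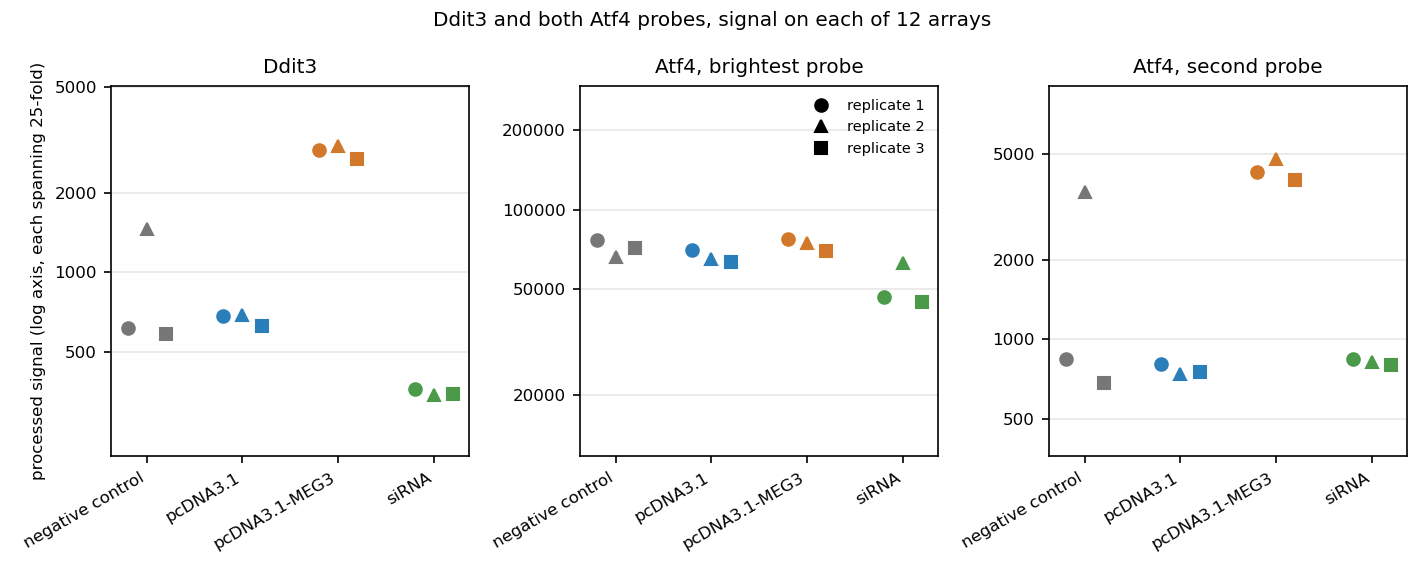
Processed signal (log axis, arbitrary units, each panel spanning the same fold range) of the Ddit3 probe and both Atf4 probes on each of 12 arrays by group; symbols are replicates. Ddit3 and the second Atf4 probe are brightest on the 3 arrays labelled pcDNA3.1-MEG3 (2679 to 2991 and 3986 to 4801) and next on replicate 2 of the negative control, whereas the brightest Atf4 probe stays between 44701 and 77189.5.

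Trib3 encodes a pseudokinase induced by Atf4 and CHOP. Its signal was 21626, 23751 and 21050.4 on the negative control arrays, 17752, 17476 and 16902 with pcDNA3.1, 20864, 21501 and 19488 on the arrays labelled pcDNA3.1-MEG3, and 18069.6, 16240.3 and 17359 with siRNA. Its differences lay between -0.10 and 0.10 with an SE of 0.21 to 0.25, and none passed the test (limma adjusted p = 0.744 to 0.924). The arrays overlapped in 3 of the 4 comparisons and not between the plasmid groups.

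Chac1 encodes an enzyme that degrades glutathione and is a known target of Atf4 and CHOP. Its signal was 12539, 18451 and 16317 on the negative control arrays, 14682, 18101 and 13283 with pcDNA3.1, 28530.1, 26469.8 and 26703 on the arrays labelled pcDNA3.1-MEG3, and 22336, 25356 and 20514.5 with siRNA. The siRNA arrays and those labelled pcDNA3.1-MEG3 lay above all negative control and pcDNA3.1 arrays. Chac1 rose 1.97-fold in siRNA against the negative control (0.98 ± 0.21, limma adjusted p = 0.0373), which held in 10 of 22 alternative settings. In pcDNA3.1-MEG3 against pcDNA3.1, as labelled, it differed by 0.60 ± 0.21 (unadjusted p = 0.0286, adjusted p = 0.441). Within the first and second scan the difference was 0.59 and 0.82, of which the second comes from replicate 3, again no separate hybridisation. Chac1 and Ddit3 thus had opposite signs in siRNA against the negative control.

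Asns encodes asparagine synthetase, which makes asparagine and is a classical target of Atf4 in amino acid shortage. Its signal was 56351, 56083 and 47096 on the negative control arrays, 77446.5, 72639 and 71239 with pcDNA3.1, 68286, 70159 and 61819 on the arrays labelled pcDNA3.1-MEG3, and 46384, 44775 and 44539 with siRNA. After scaling, the pcDNA3.1 arrays were highest, without overlap with any other group. The difference to the negative control was 0.72 ± 0.25 and did not pass (limma adjusted p = 0.1004); it passed in 5 of 22 alternative settings, and was 1.09 without negative control replicates 1 and 3 and 0.35 without its replicate 2. The other 3 differences lay between -0.37 and 0.20, with none passing.

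The 3 calls of siRNA against the negative control rested on the spread of all groups. Without negative control replicate 2, Sdf2l1, Chac1 and Ddit3 differed by 0.60, 0.73 and -0.76 (adjusted p = 0.0125, 0.0340 and 0.0121), and without its replicates 1 and 3 by 1.09, 1.22 and -1.18. All 3 missed the threshold when any 1 sample of the pcDNA3.1, pcDNA3.1-MEG3 or siRNA group was left out (adjusted p = 0.0505 to 0.104) and when the siRNA and negative control arrays were fitted alone (0.216 to 0.252). Under median scaling Ddit3 alone passed (-1.16, adjusted p = 0.0222), with Sdf2l1 at 0.66 and Chac1 at 0.79.

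**Figure D4:**
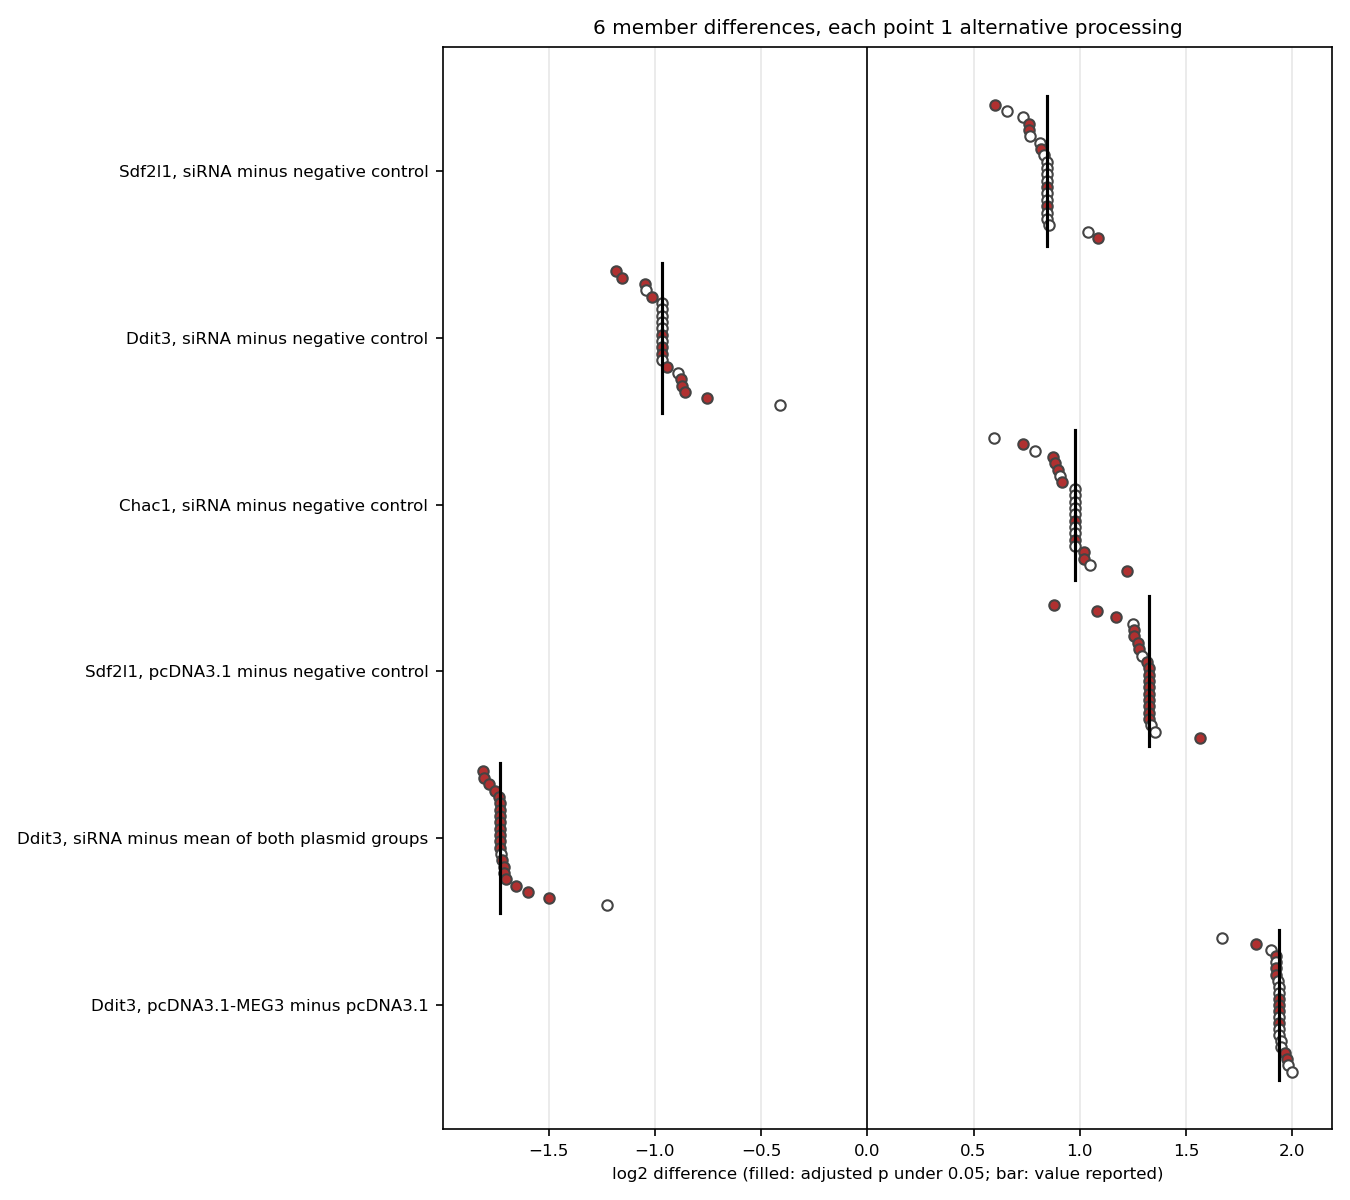
Log2 difference (x axis) of 6 member and comparison pairs under each alternative processing (points, filled where the adjusted p was under 0.05), with the value reported as a vertical bar; the points of a pair are spread vertically so that equal values can be seen. No pair crosses 0, most points of Ddit3 in siRNA against the plasmid groups are filled (20 of 22), and the siRNA against negative control pairs are filled in 7 to 12 of 22.

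The other genes of these pathways were read from 8 lists with 117 genes. None of the called genes named here changed sign under median scaling, quantile normalisation or in the authors' deposited table, but many calls did not hold under median scaling, and a count printed here is followed by that under median scaling where they differ. Over all genes, 11.3% were called higher and 6.64% lower in pcDNA3.1 against the negative control, and 4.23% and 17.1% under median scaling. In siRNA against the negative control these shares were 7.77% and 4.67%, and 4.47% and 6.41%. Between the plasmid groups 0 of the 115 measured list genes passed the adjusted threshold, as did 2 of all 24543 genes, while 16 of the 115 and 10.2% of all genes had an unadjusted p under 0.05. Atf6b, a relative of Atf6, differed by 2.22 ± 0.63 (limma adjusted p = 0.34) and Fkbp2, an ER prolyl isomerase, by 1.70 ± 0.21 (adjusted p = 0.154). With the plasmid groups fitted alone 1963 of all genes were called, so the empty lists are no result about these genes. Among 8 sensors and their proteases, Mbtps2, the site-2 protease that cleaves Atf6, rose in siRNA against the negative control (0.68 ± 0.14, limma adjusted p = 0.0318) and against the plasmid groups (0.89 ± 0.12, adjusted p = 0.00638), and Ern1, which encodes Ire1, rose in pcDNA3.1 against the negative control (0.87 ± 0.21, adjusted p = 0.0421). Neither call against the negative control held under median scaling (0.49 and 0.42). Both were also lost under quantile normalisation (0.48 and 0.50) and in the authors' deposited table (0.43 and 0.50). Among 11 eIF2alpha kinases, phosphatase subunits and eIF2B subunits, 3 rose in pcDNA3.1 against the negative control, and 1, Eif2ak2, under median scaling. Eif2ak2, the interferon-induced kinase PKR that double-stranded RNA activates, rose most (1.82 ± 0.13, adjusted p = 0.00150), and it was lower in siRNA than in the plasmid groups (-1.49 ± 0.11, adjusted p = 0.00111).

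Of 21 measured ER chaperones and folding enzymes, 2 rose and 3 fell in pcDNA3.1 against the negative control, and 0 rose and 2 fell in siRNA against it. Under median scaling the counts in pcDNA3.1 were 1 and 5, and in siRNA 0 and 2. Ero1b and Ero1a, oxidases that drive disulphide formation, were the 2 that rose in pcDNA3.1 (1.06 ± 0.13 and 0.84 ± 0.14, limma adjusted p = 0.00731 and 0.0234). Fkbp2 fell in siRNA against the negative control (-1.61 ± 0.21, adjusted p = 0.0104). Of 20 genes of ER-associated degradation and translocation, 0 were called by limma in pcDNA3.1 against the negative control. An unadjusted limma p under 0.05 was found for 4 of the 20, beside 35.8% of all genes. The median of the list was -0.19, beside 0.22 over all genes. Under median scaling 8 of the 20 were lower and 0 higher in that comparison, beside 17.1% and 4.23% of all genes. The medians there were -0.64 for the list and -0.23 over all genes.

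Of 14 partners and stress targets of Atf4, 3 rose and 0 fell in siRNA against the negative control: Atf3, a transcription factor of the same family (1.55 ± 0.19, limma adjusted p = 0.00774), Stc2 (1.13 ± 0.18, adjusted p = 0.0175) and Fgf21, a stress hormone (1.15 ± 0.26, adjusted p = 0.0419). In pcDNA3.1 against the negative control 2 rose, Atf3 (1.63 ± 0.19, adjusted p = 0.00617) and Adm2 (0.62 ± 0.15, adjusted p = 0.0420), and Fgf21 fell. The counts were 1 higher and 1 lower under median scaling, under quantile normalisation and in the authors' deposited table, where Adm2 was at 0.17, 0.30 and 0.30 without a call. Fgf21 was well above background on 2 of 3 pcDNA3.1 arrays. In siRNA against the plasmid groups 2 of the list were higher and 2 lower, or 2 and 1 under median scaling. Of all genes 10.6% were higher and 8.12% lower there. Fgf21 (3.16) and Stc2 (0.95) were the higher ones, and Nupr1 was lower (-0.93 ± 0.11, adjusted p = 0.00516).

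Of 12 measured genes of serine, glycine, proline and cysteine synthesis, 4 rose in pcDNA3.1 against the negative control and 0 fell, where under median scaling 0 rose and 1 fell. Among the 4 were Cth, which makes cysteine (0.93 ± 0.12, limma adjusted p = 0.00837), and Phgdh, the first enzyme of serine synthesis (0.70 ± 0.16, adjusted p = 0.0356). Phgdh was not called under median scaling, quantile normalisation or in the authors' deposited table (limma adjusted p = 0.354, 0.0590 and 0.0574). Cth missed the threshold under median scaling alone of these (limma adjusted p = 0.0636). Cth and Phgdh were both lower in siRNA than in the plasmid groups (-0.87 ± 0.10 and -1.08 ± 0.14, adjusted p = 0.00475 and 0.00588). Of 9 amino acid transporters, 3 rose in pcDNA3.1, led by the cystine transporter Slc7a11 (1.59 ± 0.12, adjusted p = 0.00187), and under median scaling 2 rose and 3 fell. In siRNA against the negative control Slc3a2 and Slc7a1 rose (0.69 ± 0.16 and 0.61 ± 0.14, adjusted p = 0.0444 and 0.0457), and under median scaling neither was called. Of 20 cytosolic aminoacyl-tRNA synthetases, 4 rose and 1 fell in pcDNA3.1, or 1 and 2 under median scaling. Aars rose (1.16 ± 0.14, adjusted p = 0.00718) and Eprs fell (-1.17 ± 0.18, adjusted p = 0.0130). The medians of the transporter and synthesis lists in pcDNA3.1 were 0.45 and 0.47, beside 0.22 over all genes, and under median scaling 0.0022 and 0.02, beside -0.23. On the arrays labelled pcDNA3.1-MEG3, Slc7a11, Cth and Phgdh were likewise higher than in the negative control (1.47 ± 0.12, 1.06 ± 0.12 and 1.07 ± 0.16, adjusted p = 0.00243, 0.00607 and 0.0143), whereas Aars differed by 0.38 ± 0.14 (adjusted p = 0.126). Atf3, Eif2ak2, Ero1a and Ero1b were also higher there (2.38, 1.70, 0.68 and 0.57, limma adjusted p = 0.00197, 0.00192, 0.0432 and 0.0399). Eprs was lower (-1.39, adjusted p = 0.00918), and Ern1 differed by 0.72 without passing (adjusted p = 0.0755).

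**Figure D5:**
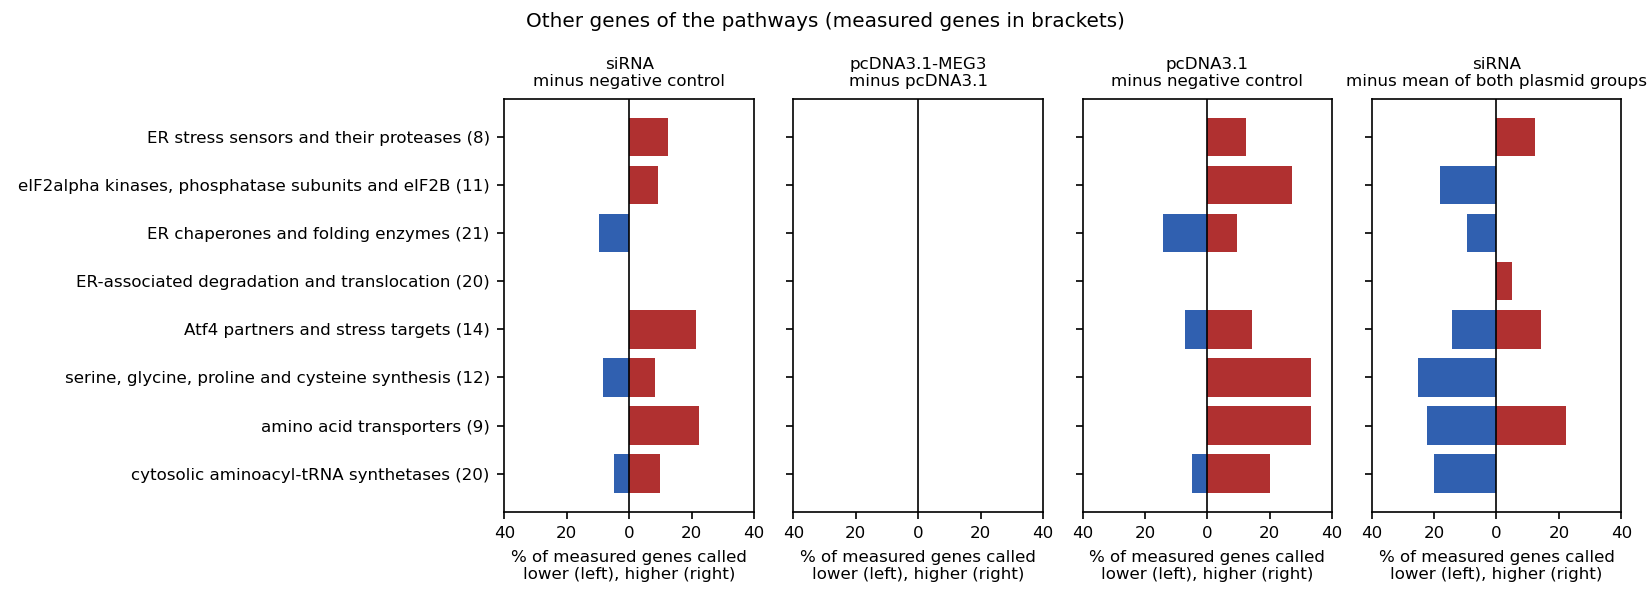
Percent of the measured genes of 8 pathway lists (rows, number measured in brackets) called higher (red, right) or lower (blue, left) in 4 comparisons (panels), at a limma adjusted p under 0.05. The panel of the plasmid groups is empty. In pcDNA3.1 against the negative control, amino acid synthesis (4 of 12) and transport (3 of 9) have bars to the right only. So do the eIF2alpha and eIF2B list (3 of 11) and the sensors (1 of 8). Under median scaling these lists had, in turn, 0 higher and 1 lower, 2 and 3, 1 and 0, and 0 and 1.

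Likeness across the 8 samples was measured as the root mean square difference of values centred on each gene's mean, over 16423 genes with a reference symbol and a value in every sample; it is a description and says nothing of shared control. The genes nearest to Hspa5 were Zfp398, Ppdpf and Oard1 (0.0432 to 0.0530), and of the members Trib3 ranked nearest, at 1007. The genes nearest to Asns were Mrpl22, Plgrkt and Fastkd5, with Atf4 the nearest member at rank 1866. For Ddit3, added after its values were seen, they were Abhd12, Nat9 and Snrpb, and the nearest member was Hspa5 at rank 4230. Herpud1 has no rank because of its missing sample.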

How the data were processed

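Total RNA was measured on single-colour Agilent arrays, given as 12 array files, 3 per group. Per the file headers, the signals were extracted from the array images with Agilent Feature Extraction 11.0.1.1. The deposited processed signal is a background-corrected intensity. The authors' deposited series table holds processed intensities, which were put on the log2 scale and used as an alternative. From the intensity, log2 minus the 75th percentile of each array was taken without control spots (1377 of 44397) and outlier spots; no spot was saturated. Spots of a probe were averaged. Probes had to exceed background on all arrays of 1 group or more (29550 of 39429 did), and a gene was its brightest probe. Replicates 1 and 3 of each group were averaged, a choice known from earlier results of these data, and 8 samples were fitted with limma 3.58.1 (R 4.3.3; residual 4 and prior 1.9 degrees of freedom). The 2 samples per group limit the precision. The script was tested on simulated data. Every probe of the 10 genes is described, and of each pathway list only genes among the 3 smallest p-values per comparison are named. Members and lists were chosen with earlier results of these data known. Alternatives covered samples, scaling, background, filter, probes, outliers and scan. A result on one gene of the pathway lists is not reported here. The pathway counts under other scalings and the comparison of pcDNA3.1-MEG3 with the negative control were added after results had been seen.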

Additional observations from a re-analysis of the deposited data

How the results depend on the processing

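Of the 5 called member differences, 0 changed sign under any alternative run. Of 40 member differences, 23 changed sign at least once (70 cases, 0 of them called there). Counts of members called are given below in the order siRNA against the negative control, pcDNA3.1-MEG3 against pcDNA3.1, pcDNA3.1 against the negative control and siRNA against the plasmid groups. They were 3, 0, 1 and 1, and with 1 sample left out they ranged from 0 to 6, 0 to 1, 0 to 5 and 1 to 6. In the same order they were 4, 3, 4 and 4 with 12 arrays as 12 samples, 0, 0, 1 and 1 with the replicate block, 0, 0, 0 and 0 with each plasmid group as 1 sample, and 1, 0, 1 and 2 under median scaling. They were 2, 1, 2 and 2 under quantile normalisation and in the authors' deposited table, 1, 0, 1 and 1 without a filter, and 3, 1, 1 and 1 with probes above background on all arrays. They were 3, 0, 1 and 2 with the mean of a gene's probes, 2, 0, 1 and 2 with outlier spots kept, 0, 1, 1 and 6 with the compared groups alone, and 6, 2, 5 and 7 with scan as a random block. With scan as a fixed block the second was 5. The replicate numbers did not pair the samples (correlations of deviations -0.0796 to 0.0139). All genes called ranged over the alternatives from 0 to 14353, 0 to 11169, 0 to 16590 and 0 to 17179. Normexp, run on the median signal, called 0 genes in each comparison. Its lowest signals were 63.1 and 58.3 on pcDNA3.1 replicates 1 and 3 and 884 on siRNA replicate 2, against about 50.3 elsewhere. A normexp whose fit left out spots far below background was added after this was seen and called 3, 1, 1 and 2 members. Herpud1 has no siRNA value without siRNA replicates 1 and 3. With 4 residual degrees of freedom, adjusted p-values moved with single samples. The cause of the changes was not tested. The differences that changed sign follow. With 12 arrays as 12 samples, Atf4 -0.16 and Trib3 -0.030 in siRNA against the negative control, Atf4 -0.013 in the plasmid groups. With each plasmid group as 1 sample, Atf4 -0.013 in the plasmid groups. Under median scaling, Atf4 -0.12, Trib3 -0.14 and Dnajb9 -0.14 in siRNA against the negative control, Hspa5 0.011 in the plasmid groups, Chac1 -0.21, Atf4 -0.27, Xbp1 -0.13 and Dnajb9 -0.18 in pcDNA3.1 against the negative control, Atf4 0.11 and Dnajb9 0.16 in siRNA against the plasmid groups. Under quantile normalisation, Hspa5 0.048 in the plasmid groups. Under normexp, Atf4 -0.49, Xbp1 -0.087, Asns -0.19, Trib3 -0.33 and Dnajb9 -0.29 in siRNA against the negative control, Xbp1 0.065, Asns 0.058, Hspa5 0.26, Sdf2l1 -0.059 and Herpud1 0.20 in the plasmid groups, Chac1 -0.0047, Atf4 -0.55, Xbp1 -0.067 and Dnajb9 -0.024 in pcDNA3.1 against the negative control, Xbp1 -0.052 and Trib3 -0.11 in siRNA against the plasmid groups. Under the trimmed normexp, Atf4 -0.15, Trib3 -0.0091 and Dnajb9 -0.021 in siRNA against the negative control, Atf4 -0.25 in pcDNA3.1 against the negative control, Atf4 0.036 in siRNA against the plasmid groups. In the authors' deposited table, Dnajb9 -0.024 in siRNA against the negative control, Hspa5 0.050 in the plasmid groups. With the mean of a gene's probes, Atf4 -0.24 in siRNA against the negative control, Atf4 -0.34 in pcDNA3.1 against the negative control, Dnajb9 0.081 in siRNA against the plasmid groups. With outlier spots kept, Atf4 -0.0087, Trib3 -0.029 and Dnajb9 -0.031 in siRNA against the negative control. With scan as a random block, Atf4 -0.14 and Trib3 -0.038 in siRNA against the negative control, Atf4 -0.013 in the plasmid groups. With scan as a fixed block, Atf4 -0.013 in the plasmid groups. On the second probe (added after its values were seen), Atf4 -0.56 in siRNA against the negative control, Dnajb9 0.061 in the plasmid groups, Atf4 -0.85 in pcDNA3.1 against the negative control, Dnajb9 0.23 in siRNA against the plasmid groups. With 1 sample left out, Atf4 -0.44 to 0.58, Asns -0.16 to 0.57, Trib3 -0.30 to 0.40 and Dnajb9 -0.060 to 0.15 in siRNA against the negative control, Atf4 -0.056 to 0.076 and Hspa5 -0.10 to 0.013 in the plasmid groups, Chac1 -0.0051 to 0.48, Atf4 -0.33 to 0.69, Trib3 -0.45 to 0.25, Ddit3 -0.42 to 0.0053 and Hspa5 -0.31 to 0.27 in pcDNA3.1 against the negative control, Atf4 -0.29 to 0.057, Trib3 -0.012 to 0.22 and Dnajb9 -0.18 to 0.034 in siRNA against the plasmid groups.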
